A study of Rattus norvegicus with 6 samples.

Results

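The transcripts described here were NONCODE lncRNAs of rat sciatic nerve whose locus lay wholly inside the span of a listed gene, called intragenic lncRNAs below. They were the transcripts of the lncRNA table with NONRATT identifiers, a length of 10000 nt or less and a start and end within the span of 1 gene of the mRNA table, with 4 identifiers left out in advance. This position rule used no expression value. It selected 11681 of the 22721 lncRNA transcripts of the series (51.4%), which is 57.7% of the 20254 NONCODE transcripts of that length. Their host genes, the genes whose spans contain them, numbered 6803 of 30957.

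The RNA came from the sciatic nerves of Sprague-Dawley rats about 1 month old. In the D4 and D7 groups the left nerve had been crushed with hemostatic forceps 4 or 7 days earlier, with 2 rats sequenced per group. The control group also held 2 rats. The labels call them normal controls, whereas the methods describe surgery that exposed the nerve without clamping it, so the groups share the operation only under the second reading. There was 1 library per rat, labelled a or b, from total RNA depleted of ribosomal RNA. A p-value here rests on the spread between the 2 rats within each group. That spread was estimated in 1 fit of all 6 libraries, with information shared across transcripts. A comparison of 2 groups therefore also draws on the spread within the group left out of it. The libraries came from whole nerve, so that fewer cells of a type and less RNA per cell cannot be told apart.

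Fragments counted on lncRNAs ran from 2694777 to 3043817 per library and fragments counted on genes from 18727255 to 25350886. The summed level of 8 Schwann cell markers was 71554 to 104635 CPM (counts scaled to the library's total) in control, 4786 to 5315 on D4 and 11842 to 18579 on D7. That of 7 macrophage markers was 384 to 403, 1629 to 1651 and 1222 to 1380 CPM. Markers of fibroblasts (5 of 5 found) summed to 55004 to 59709, 33588 to 37271 and 28920 to 31883 CPM, and those of endothelial cells (3 of 4 found) to 418 to 423, 198 to 245 and 141 to 196 CPM. Adipocyte markers (5 of 5) summed to 1080 to 1315, 153 to 309 and 7.09 to 438 CPM, and skeletal muscle markers (6 of 8) to between 7.09 and 84.5 CPM. No marker found was at 0 in all 6 libraries. These sums moved with the groups, and their part in the results for the lncRNAs was not tested.

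A gene can hold further transcripts inside its own span: on the same strand within an intron, across its exons as a noncoding isoform, or on the opposite strand. Some intragenic lncRNAs are made from their own promoters and some are processed from the host's primary transcript. After a crush, the axons beyond the site are cut off and degenerate, Schwann cells stop making myelin, divide and switch to a repair state that attracts regrowing axons, and macrophages enter the nerve and clear myelin debris. Many genes of myelin, cell division, growth factors and phagocytosis change in this process, and several of them hold intragenic lncRNAs. lncRNAs were counted per transcript and hosts per gene, without a stated use of strand. Fragments of a lncRNA and of the host exons it overlaps could therefore not be told apart, and whether the host's counts include those of the lncRNA was not stated.

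The sequences of the lncRNAs themselves were not used here. The promoters of 2 hosts are shown because at least 3 separate lncRNAs of each rose at D4 together with the host and because the hosts are in the gene lists used below. They are Dclk1, which encodes a doublecortin-like kinase that binds microtubules, and Mki67, which encodes the proliferation antigen Ki-67. Both were chosen after their values were seen. Sppl2b and Nav2, in which more lncRNAs rose with the host, are in no list and were not searched. The sequences are the 250 bases before the start of the gene in RefSeq on GRCr8, read 5′ to 3′ on the gene's strand, at chr2:141782634-141782883 (plus strand) for Dclk1 and chr1:199952594-199952843 (minus strand) for Mki67. Capitals mark matches on either strand to the AP-1 letters TGANTCA in Dclk1, and to the CCAAT box and the cell cycle homology letters TTTGAA in Mki67.
Dclk1: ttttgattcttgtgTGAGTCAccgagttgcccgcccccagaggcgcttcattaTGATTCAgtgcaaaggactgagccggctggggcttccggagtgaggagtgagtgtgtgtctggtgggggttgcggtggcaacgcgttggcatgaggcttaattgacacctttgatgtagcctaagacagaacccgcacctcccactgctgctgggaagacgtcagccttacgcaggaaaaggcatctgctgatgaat
Mki67: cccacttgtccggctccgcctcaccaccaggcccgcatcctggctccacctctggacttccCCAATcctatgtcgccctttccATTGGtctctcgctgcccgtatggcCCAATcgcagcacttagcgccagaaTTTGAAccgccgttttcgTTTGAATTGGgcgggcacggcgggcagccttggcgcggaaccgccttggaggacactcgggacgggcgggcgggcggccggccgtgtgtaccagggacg
In Dclk1 the AP-1 letters began 236 and 197 bases before the start. In Mki67 the CCAAT letters began at 189, 167, 142 and 94 bases, and TTTGAA at 117 and 99, where the last match shares 1 base with a CCAAT match. Of 33469 promoters of this length, 6.34% held the AP-1 letters, 34.0% a CCAAT box and 16.2% TTTGAA. Searches for the SOX letters ACAAAG (in 16.3% of promoters) and the TATA box letters TATAAA (12.9%) found no match in either window. Mbp, the list gene in which lncRNAs fell with the host, has 2 starts in RefSeq and is not shown. At one of them the SOX letters began 240 bases upstream, and the other window held none of these motifs.

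The intragenic lncRNAs were short and lay throughout their hosts. Their length was 201 to 7366 nt with a median of 613 nt (quartiles 418 and 783), so none lay near the length limit. The locus spanned a median of 1297 bases, which was a median of 5.73% of the host's span. Spliced transcripts numbered 6677 (57.2%) and unspliced ones 5004 (42.8%). A single gene span held 11428 of the 11681, while 253 lay inside 2 to 5 overlapping spans and were left out where a host had to be named. The 11428 shared 6657 hosts, of which 3817 held 1 and 2840 held several, so that 7611 of them had a neighbour in the same gene and are not independent of it. The NONCODE name was built on the host's own symbol for 5068, on another stem for 5585, and was missing for 1028.

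Position along the host was measured from the lower coordinate, since the host's strand was not used. The midpoint lay at a median of 50.2% of the host's span (quartiles 20.7% and 79.0%). The first and the last 10% of the span held 1656 and 1633 lncRNAs, against 895 to 1142 in each 10% between them. Within 1000 bases of an end of the host lay 4309 (36.9%), and 447 reached that end exactly.

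**Figure D1:**
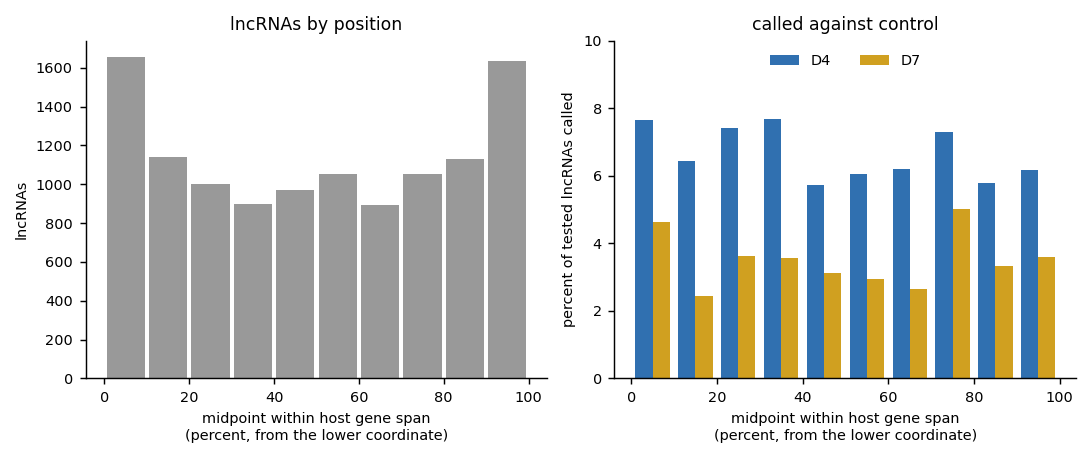
Intragenic lncRNAs inside 1 gene by their place in the host, in bins of 10% of its span from the lower coordinate. Bars in the left panel give the number of lncRNAs per bin (1656 and 1633 in the outer bins). Bars in the right panel give the percent of tested ones differentially expressed at D4 and D7. This percent ran from 5.72% to 7.69% at D4 and from 2.43% to 5.01% at D7. A trend along the host was not tested, and without the host's strand the bins mix the 5′ and 3′ ends of genes.

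These lncRNAs were expressed at a low level. The median level was 0.827 FPKM (fragments scaled to transcript length and library size) in control, 0.874 on D4 and 1.02 on D7, and 45.5%, 46.6% and 50.4% of them reached 1 FPKM. In control, where the host had at least 1 FPKM, the lncRNA stood at a median of 8.32% of the host's FPKM over 10221 pairs, and 270 stood above the host. They took 23.5% to 25.6% of the lncRNA counts of a library, and 10 transcripts held 14.8% of the counts of all intragenic lncRNAs in control. No fragment was counted on 95 of them in any library. Another 849 held 1 to 3 counts in every library, and 344 held one and the same count in all 6 libraries, which was 1 for 291, 2 for 47 and 3 for 6. The filter on low counts kept 7071 (60.5%) for testing and left 4610 untested, so that the counts of changed lncRNAs below do not cover all intragenic lncRNAs. Across the tested ones, the log2 levels of the 2 libraries of a group correlated at 0.85 in control, 0.86 on D4 and 0.85 on D7. This is a correlation across transcripts of the same annotation, which are not independent replicates.

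The 6 most abundant in control showed how far apart their hosts could be. NONRATT010821.2 (chr15:27738989-27739245) carries the name of Rmrp, the RNA of the ribonuclease MRP, and lies in a gene listed as RNaseP_nuc. It held 2696 and 1653 counts in control, 5640 and 5976 on D4, and 4825 and 4976 on D7. Both injured groups lay above control, with a log2 fold change of 1.27 (SE 0.20, adjusted p = 0.020) at D4 and 1.09 (SE 0.20, adjusted p = 0.040) at D7 in edgeR's quasi-likelihood test. These calls were lost without control b, D4 a or D4 b (adjusted p up to 0.108 at D4), and at D7 also without D7 a or D7 b (up to 0.144). Its host is nearly the same locus and had 2963 and 1827, 6199 and 6538, and 5268 and 5435 counts.

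NONRATT026609.2 (chr7:23543124-23548539) lies in Syn3, the gene of the synaptic vesicle protein synapsin III. It held 20177 and 13849 counts in control, 17076 and 22618 on D4, and 16338 and 13722 on D7. Its host had only 13 to 45 counts in any library. The groups overlapped, and the log2 fold changes of 0.06 (SE 0.17) and −0.27 (SE 0.17) were not called. NONRATT004165.2 (chr10:20611529-20615258), in the uncharacterized gene LOC100362038, fell from 19152 and 13507 counts in control to 3656 and 3981 on D4 and to 4518 and 4578 on D7. Its log2 fold change was −2.25 (SE 0.15, adjusted p = 0.0024) at D4 and −1.93 (SE 0.14, adjusted p = 0.0049) at D7, beside −2.54 and −2.02 for the host. NONRATT019765.2 in Cst3, which encodes the protease inhibitor cystatin C, had 2379 and 1199, 1601 and 1722, and 879 and 995 counts, and was not called at either day. The remaining 2, in the myelin genes Pmp2 and Drp2, are given with their group.

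The first question was which intragenic lncRNAs changed 4 days after the crush. Between control and D4, 470 of the 7071 tested (6.65%) were differentially expressed, meaning an adjusted p-value under 0.05 and at least a 2-fold change in edgeR's quasi-likelihood test. Among all 14077 lncRNAs tested the share was 10.1%. Upregulated were 280 (3.96%, against 5.19% of all lncRNAs), with a median log2 fold change of 2.24 (2.19 with the 14 that were at 0 in a group set at their lower bound), in 248 genes. Downregulated were 190 (2.69%, against 4.87%), with a median of −2.13, in 170 genes. These shares lay below those of all lncRNAs tested, and that difference was given no test. Of the hosts, 1299 of the 6471 tested (20.1%) were differentially expressed, with 601 upregulated and 698 downregulated, against 21.9% of all genes.

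The balance of the directions depended on the scaling of the libraries. It was 280 up and 190 down with TMM factors, 393 and 157 without them, and 196 and 403 when the lncRNA counts were scaled by the library sizes of the mRNA table. The median log2 fold change of all lncRNAs tested moved with it, from 0.02 to 0.20 and −0.33, and the changes given here are relative to the first. With 1 library left out at a time, 84 to 275 of the 470 calls were kept, 70 were kept in all 6 such fits, and none reversed.

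Between control and D7, 254 intragenic lncRNAs (3.59%) were differentially expressed, against 5.79% of all lncRNAs tested. Upregulated were 145 (2.05%, against 3%), with a median log2 fold change of 2.44 (2.43 with those at 0 at their bound), and downregulated were 109 (1.54%, against 2.79%), with a median of −2.13. The directions were 217 and 97 without TMM factors and 128 and 141 on the mRNA scale, with the median of all lncRNAs moving from 0.04 to 0.20 and −0.07. Host genes were differentially expressed in 1094 of 6471 cases (16.9%), 515 up and 579 down, against 18.8% of all genes. Leaving out 1 library at a time kept 49 to 94 of the 254 calls, and 41 were kept in all 6 fits. The D4 and D7 comparisons share the control libraries.

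Between D4 and D7, 9 intragenic lncRNAs (0.127%) passed the thresholds, against 0.249% of all lncRNAs tested, with 3 higher and 6 lower on D7. At an unadjusted p-value under 0.05 there were 695. The 3 with higher levels on D7 lie in Dip2b, Tenm2 and Emid1. NONRATT030737.2 (chr7:141878162-141879601) lies 350 bases from an end of Dip2b, a gene of the disco-interacting protein family. It held 3 and 3 counts in control and again 3 and 3 on D4, and 1761 and 1437 on D7. D7 stood apart from the other groups, with a log2 fold change of 9.06 (SE 0.25, adjusted p = 0.00052) against D4, and was called with each library left out in turn. With 3 counts in each D4 library, the SE of 0.25 is smaller than counting error alone and understates the uncertainty of this fold. The host had 5250 and 4014, 10680 and 12046, and 12904 and 10082 counts.

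NONRATT005350.2 (chr10:20845115-20846454) lies 216 bases from an end of Tenm2, the gene of a teneurin adhesion receptor. It held 402 and 366 counts in control, 5 and 6 on D4, and 162 and 189 on D7. Both D4 libraries were low, and D7 lay between them and control. The log2 fold change from D4 to D7 was 5.03 (SE 0.24, adjusted p = 0.0027), and it was lost without D4 a (adjusted p = 0.056). NONRATT010109.2 (chr14:85360299-85361835) in Emid1, which encodes an extracellular EMI-domain protein, had 515 and 339, 59 and 76, and 647 and 473 counts, and its host moved likewise with 1878 and 1177, 121 and 150, and 1488 and 1035. Its log2 fold change from D4 to D7 was 3.12 (SE 0.28, adjusted p = 0.028), lost without D4 a, D4 b or D7 a (adjusted p up to 0.17).

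The 3 largest falls from D4 to D7 lie in Galns, Tanc2 and Iqsec2. NONRATT014793.2 (chr19:55389681-55390521) in Galns, the lysosomal enzyme that degrades keratan sulphate, held 99 and 83 counts in control, 292 and 289 on D4, and 2 and 2 on D7. It was above control on D4 and below it on D7. The log2 fold changes were 1.52 (SE 0.19, adjusted p = 0.011) at D4 and −5.52 (SE 0.27, adjusted p = 0.0020) at D7, and the first was lost without control b, D4 a or D4 b (adjusted p up to 0.0891). The host was upregulated at both days, with 674 and 586, 2155 and 2364, and 1807 and 1560 counts.

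NONRATT004978.2 (chr10:94126599-94127695) ends 2 bases from an end of Tanc2, which encodes a postsynaptic scaffold protein. It held 11 and 8 counts in control, 617 and 821 on D4, and 11 and 10 on D7. Both D4 libraries, and no other, were high, with a log2 fold change of 6.06 (SE 0.26, adjusted p = 0.0010) against control and of −6.01 (SE 0.26, adjusted p = 0.0019) from D4 to D7. NONRATT031023.2 (chrX:22212132-22212736) in Iqsec2, an exchange factor for ARF GTPases, had the same shape at lower counts, with 1 and 1, 63 and 73, and 1 and 1. Its level on D4 was 60.8 times that of control, with a 95% counting interval from 16.5 to 507. The call from D4 to D7 was lost without any 1 of the D4 and D7 libraries (adjusted p up to 0.0959).

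The next comparison asked whether a lncRNA changed with the gene that holds it. Over the 6882 that lie in 1 gene and whose host passed the filter, the log2 fold changes of lncRNA and host correlated at 0.61 at D4 and 0.57 at D7, and at 0.69 at both days for the 692 with at least 100 counts in every library. These values describe transcripts from the same libraries that share loci, possibly fragments, and often a host. Where both were differentially expressed at D4, the direction was the same for 286 of 290, with 155 pairs up and 131 down. The upregulated pairs had median log2 fold changes of 2.57 for the lncRNA and 2.09 for the host, and the downregulated pairs −2.31 and −1.96. At D7 it was the same for 159 of 161, with 91 up (2.60 and 2.24) and 68 down (−2.16 and −2.02). With lncRNAs at 0 in a group set at their bound, the medians of the upregulated lncRNAs were 2.55 and 2.58. These pairs were chosen because both passed the thresholds, which bears on the size of their medians. In the test against the host given below, 6 of the 155 and 5 of the 131 pairs differed at D4. At D7, 3 of the 91 and 1 of the 68 differed.

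In hosts upregulated at D4, the 492 tested lncRNAs had a median log2 fold change of 1.60, and 460 had a positive sign. In downregulated hosts the median of 571 was −1.14 (−1.11 with those at 0 at their bound), with 513 negative, and in the remaining hosts the median of 5819 was 0.09. At D7 the medians were 1.49 (427), −1.28 (438) and 0.10 (6017). Several differentially expressed lncRNAs were held by 41 hosts at D4, and 2 of these, Utrn and Ercc6l2, held both directions. At D7 there were 25 such hosts, each with 1 direction.

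**Figure D2:**
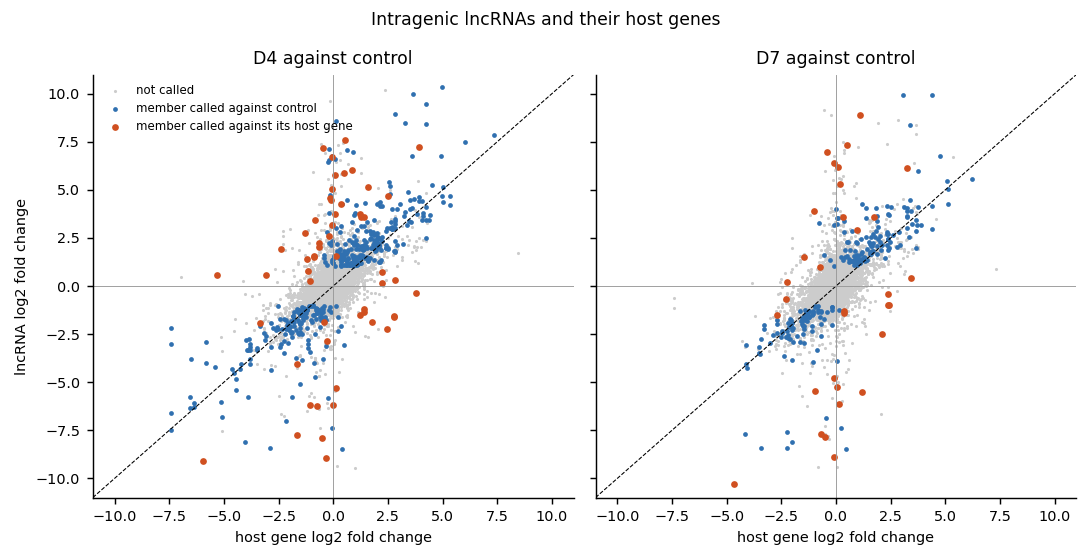
Log2 fold change against control of each intragenic lncRNA (vertical) and of its host gene (horizontal) at D4 and D7, for the 6882 pairs tested. Blue points are lncRNAs differentially expressed against control, orange points differed from the host, grey points neither, and the dashed line marks equal change. Most blue points lie in the lower left and upper right, and orange points lie far above or below the line.

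A lncRNA and its host can both change and yet change unequally, so the difference was tested itself, with the host's level entered as an offset in the edgeR fit of the lncRNA. At D4, 55 of 6882 intragenic lncRNAs (0.799%) changed differently from the host, against 0.792% of all 7957 lncRNAs that could be tested so. Relative to the host, 33 were higher and 22 lower, and on the mRNA scale 17 were higher and 28 lower. The median difference over all lncRNAs tested was 0.15 and moved to −0.21 on that scale. The host was itself not differentially expressed for 26 of the 55, was upregulated for 17 and downregulated for 12. At D7, 32 (0.465%, against 0.515%) differed from the host, with 16 higher and 16 lower. Leaving out 1 library at a time kept 10 to 24 of the 55 and 10 to 13 of the 32.

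A call for the lncRNA without one for the host was not by itself a difference. At D4, 166 differentially expressed lncRNAs lay in hosts that did not pass the thresholds, 129 of them with the host's sign, and 26 of the 166 differed from the host when tested. Conversely, 773 lncRNAs in differentially expressed hosts were not called, and 14 of them differed. Unspliced transcripts made up 36 of the 55 at D4 and 28 of the 32 at D7. As a share of those tested, this was 1.14% of unspliced against 0.509% of spliced lncRNAs at D4, and 0.889% against 0.107% at D7, given as counts without a test. Within 1000 bases of a host end lay 24 of the 55 and 12 of the 32, which was 0.952% of 2521 tested there against 0.711% of 4361 farther away at D4, and 0.476% against 0.459% at D7, so that the D7 shares were close.

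The falls furthest below the host were in Son, Cbfa2t2, Lonrf2 and Dido1. NONRATT006444.2 (chr11:31813129-31813576) lies in Son, which encodes a splicing cofactor, 6511 bases from the nearest end. It held 999 and 863 counts in control, 2 and 2 on D4, and 2 and 2 on D7, while the host held 15591 and 13975, 16424 and 17686, and 16619 and 15170. The lncRNA was nearly absent from all 4 injured libraries and the host was not. Its log2 fold change was −8.93 (SE 0.24, adjusted p = 0.00034) at D4 and −8.87 (SE 0.24, adjusted p = 0.00037) at D7, and its difference from the host was −8.63 (SE 0.24, adjusted p = 0.00061) and −8.76 (SE 0.24, adjusted p = 0.00028). With 2 counts in each injured library, these standard errors are smaller than counting error alone, so the size of the fall is less certain than they imply. The same can hold for other lncRNAs with only a few counts in a group.

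NONRATT018780.2 (chr3:150037756-150038255) ends 2 bases from an end of Cbfa2t2, the gene of an ETO-family transcriptional corepressor. It held 230 and 248 counts in control and 1 in each injured library, while the host held 714 to 1062 in all 6. Control was 267 times D4 (95% counting interval 73.6 to 2215) and 255 times D7 (70.3 to 2115), and the difference from the host was called at both days (adjusted p = 0.0012 and 0.0010). NONRATT029958.2 (chr9:45468222-45469911) in Lonrf2, a RING finger gene, fell from 1019 and 782 counts to 5 and 4 on each day. Its host fell less, from 3487 and 2607 to 1185 and 1584 on D4, and to 2502 and 1894 on D7. The difference was −6.12 (SE 0.29, adjusted p = 0.0012) at D4 and −7.02 (SE 0.29, adjusted p = 0.00080) at D7.

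NONRATT020041.2 (chr3:176165902-176166302) in Dido1, a chromatin-associated gene, held 112 and 98 counts in control, 1 and 2 on D4, and 2 and 1 on D7, in a host of 2414 to 3864 counts. Control was 78.3 times D4 (26.4 to 383) and 74.8 times D7 (25.3 to 366). The difference from the host was called (adjusted p = 0.0044 and 0.0053), but not without D4 a or D4 b at D4 (up to 0.0545) and not without D7 b at D7 (0.0525). The differences in Son, Cbfa2t2 and Lonrf2 were called with each library left out.

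The rises furthest above the host were in Herc1, Adam19 and Cblb. NONRATT004188.2 (chr10:31237556-31240582) reaches the end of Adam19, which encodes a membrane metalloprotease, and is 3027 nt long. It held 13 and 12 counts in control, 2500 and 2870 on D4, and 2311 and 2055 on D7, whereas the host held 2565 and 3260, 5603 and 6514, and 5259 and 4457. The injured groups stood far above control in the lncRNA and modestly above it in the host. Its log2 fold change was 7.57 (SE 0.16, adjusted p = 0.00022) at D4 and 7.34 (SE 0.16, adjusted p = 0.00028) at D7, with a difference from the host of 7.01 (SE 0.24, adjusted p = 0.00077) and 6.79 (SE 0.23, adjusted p = 0.00063).

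NONRATT027817.2 (chr8:72053108-72053497) lies 23619 bases inside Herc1, the gene of a giant HECT ubiquitin ligase. It held 1 and 1 counts in control, 196 and 168 on D4, and 139 and 155 on D7, which is 163 times (44.7 to 1348) and 138 times (37.7 to 1141) the control level. The host held 5553 to 7152 counts in every library, and the difference was called at both days (adjusted p = 0.00077 and 0.00066). NONRATT006957.2 (chr11:51038964-51039659) in Cblb, a ubiquitin ligase that restrains T cell activation, rose from 2 and 2 counts to 269 and 217 on D4 and 195 and 191 on D7. Its host held 1728 to 2772 counts, and the difference was 6.76 (SE 0.24, adjusted p = 0.00077) at D4 and 6.48 (SE 0.24, adjusted p = 0.00066) at D7. All 3 differences were called with each library left out. At D7 the Dip2b transcript given above joined them, with a difference of 7.82 (SE 0.21, adjusted p = 0.00028), and the Galns transcript lay below its host by 6.70 on the log2 scale (SE 0.26, adjusted p = 0.00066).

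NONRATT020013.2 (chr3:167959361-167959772) in Bcas1, a gene of myelinating cells, differed because its host fell. It held 43 and 37 counts in control, 74 and 60 on D4, and 55 and 43 on D7, without a call. The host dropped from 4864 and 3198 to 158 and 124, and then stood at 1157 and 777. The difference was 5.77 (SE 0.27, adjusted p = 0.0012) at D4, and that of 2.43 at D7 (SE 0.24, adjusted p = 0.027) was lost with any library left out (up to 0.143).

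**Figure D3:**
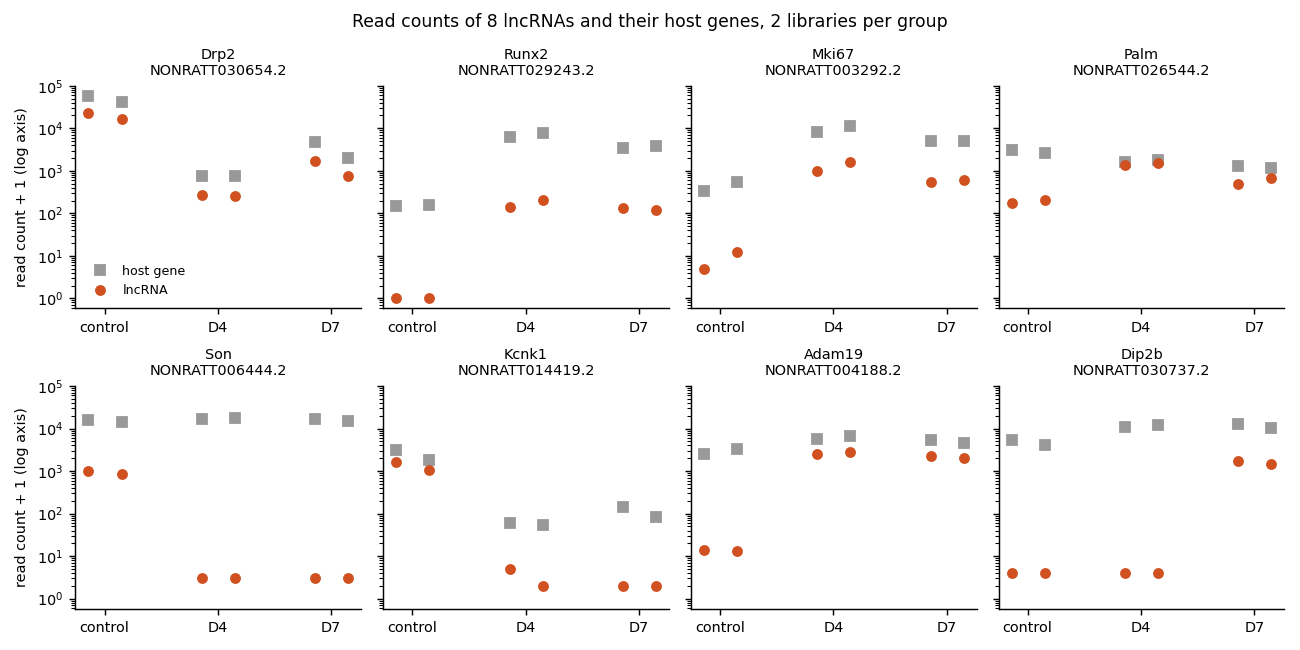
Fragment counts plus 1 (log axis) of 8 intragenic lncRNAs and their host genes in the 6 libraries. In Drp2, Runx2, Mki67 and Kcnk1 the host moved in the lncRNA's direction, in Palm it moved the opposite way, and in Son, Adam19 and Dip2b the lncRNA changed by far more than the host, from 999 and 863 counts to 2 in Son.

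Opposite directions in which both passed the thresholds were rare. At D4 they were found for 2 lncRNAs that rose in a fallen host and 2 that fell in a risen host, and at D7 for 1 of each kind, among those inside 1 gene. NONRATT026544.2 (chr7:12763477-12764429) in Palm, which encodes the membrane protein paralemmin, held 175 and 207 counts in control, 1356 and 1514 on D4, and 495 and 662 on D7. Its host held 3139 and 2638, 1591 and 1806, and 1284 and 1153. The lncRNA was high in both injured groups and the host low, with log2 fold changes of 2.74 (SE 0.23, adjusted p = 0.0041) and −1.28 at D4 and of 1.50 (SE 0.22, adjusted p = 0.024) and −1.45 at D7. The lncRNA's D4 call and its difference from the host at D4 (4.01, SE 0.26, adjusted p = 0.0046) were kept with each library left out, and its D7 call was lost with any (up to 0.0914). The other pair at D7 is the Galns transcript and its host.

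NONRATT000018.2 (chr1:6929202-6929758) in Utrn, the gene of the dystrophin relative utrophin, rose on D4 from 104 and 79 counts to 267 and 283, and the host fell from 41539 and 34577 to 21295 and 25728. The log2 fold changes were 1.43 (SE 0.20, adjusted p = 0.013) and −1.21, and the lncRNA's call was lost without control b, D4 a or D4 b (up to 0.0897). NONRATT002114.2 (chr1:44429026-44430004) in Tiam2, an exchange factor for Rac, fell from 138 and 91 counts to 40 and 50, while the host rose from 525 and 347 to 1173 and 1691. Its change of −1.50 (SE 0.26, adjusted p = 0.025) was kept only without control b (up to 0.147 in the other 5 fits).

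NONRATT015587.2 (chr2:198422357-198423205) fell from 68 and 73 to 22 and 30 counts on D4 in AABR07012583.3, a gene without a symbol that rose from 99 and 77 to 587 and 1153. The lncRNA's change was −1.61 (SE 0.27, adjusted p = 0.022), lost without any 1 of the control and D4 libraries (up to 0.133). For 2 more, inside 2 overlapping genes each, the host is ambiguous. NONRATT026541.2 in Palm rose from 5 and 4 to 20 and 30 counts on D4, and NONRATT026545.2 in Grin3b, a glutamate receptor subunit gene with 0 counts in both control libraries, fell from 65 and 69 to 31 and 28 on D7. Both calls were lost with any library left out.

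The lncRNAs were next grouped by the role of their host. The 10 host lists hold genes known for each role together with genes that the study itself picked from these libraries, so that their directions are not independent evidence. The medians below are to be read beside 0.02 at D4 and 0.04 at D7 over all lncRNAs tested, and −0.04 and 0.01 over all genes tested. With a library left out, the count filter also admits other lncRNAs, so that the medians given for such fits are over slightly different members. Of all lncRNAs tested, 5.19% rose and 4.87% fell at D4, and 3% and 2.79% at D7. In all genes, 11.2% rose and 10.7% fell at D4, and 9.83% and 9.02% at D7.

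**Figure D4:**
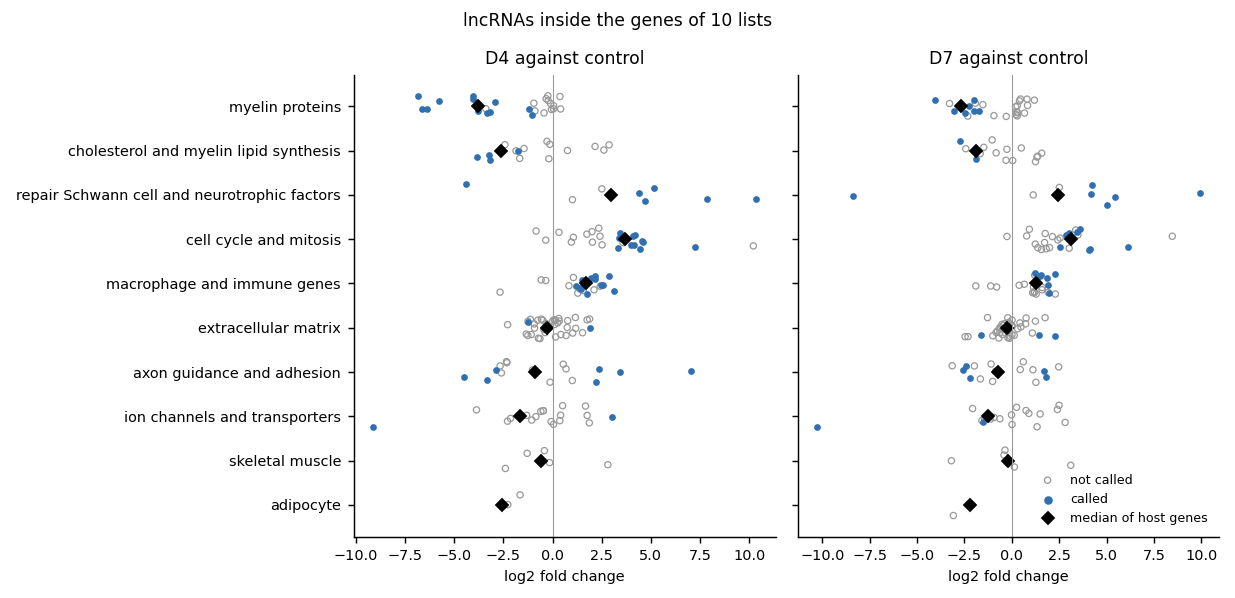
Log2 fold change against control at D4 and D7 of the tested intragenic lncRNAs of each of the 10 host lists, 1 point per lncRNA, with black diamonds for the median of the host genes. The vertical spread of points within a list is only to keep them apart. At D4, the hosts' medians run from −3.81 (myelin proteins) to 3.66 (cell cycle).

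Myelin proteins form and hold the Schwann cell sheath. Of 22 such genes 9 held 30 intragenic lncRNAs, of which 25 were tested, and 12 fell at D4 and 7 at D7. In the other direction there were 0 calls in edgeR's quasi-likelihood test and 0 by DESeq2, with 0 at D4 and 2 at D7 at an unadjusted p under 0.05. Their median log2 fold change was −1.05 at D4 and −0.29 at D7. The medians of the hosts were −3.81 and −2.70, with 8 of 9 hosts down at D4 and 7 at D7. These medians are over different numbers of lncRNAs and genes, and the hosts hold unequal numbers of lncRNAs. In the test against the host, 0 of these lncRNAs differed at D4 and 1 at D7. Their summed level went from 13338 and 11211 CPM in control to 671 and 737 on D4 and to 3107 and 1560 on D7. With 1 library left out, 2 to 11 fell at D4 and 1 to 4 at D7, and the D7 median ran from −0.62 to −0.03. The Schwann cell marker sums given above fell with these lncRNAs, and their part was not tested.

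NONRATT030654.2 (chrX:105286239-105289053) lies in Drp2, whose protein links dystroglycan to periaxin in the Schwann cell membrane. It held 22256 and 16239 counts in control, 267 and 254 on D4, and 1690 and 755 on D7. Both injured groups were below control, D4 furthest, and the host had the same shape with 57912 and 42143, 761 and 754, and 4766 and 1965. The log2 fold changes were −6.36 (SE 0.46, adjusted p = 0.0025) and −4.07 (SE 0.41, adjusted p = 0.0094), and the differences from the host, 0.17 (SE 0.08) and 0.05 (SE 0.08), were not called.

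NONRATT015155.2 (chr2:93827564-93830820) lies in Pmp2, which encodes a fatty acid binding protein of myelin. It held 4772 and 6180 counts in control, 66 and 41 on D4, and 2175 and 201 on D7, where the 2 rats lay far apart. The change of −6.83 at D4 (SE 1.26, adjusted p = 0.029) was lost without any 1 of the control and D4 libraries (up to 0.17), and −2.33 at D7 (SE 1.02, adjusted p = 0.23) was not called. The study named 2 transcripts of Pmp22, a tetraspan protein of compact myelin. NONRATT004386.2 had 339 and 199, 47 and 32, and 73 and 68 counts, and NONRATT004387.2 had 111 and 68, 6 and 6, and 26 and 14. Their changes at D4 were −2.90 (SE 0.36, adjusted p = 0.0097) and −4.02 (SE 0.46, adjusted p = 0.0077), beside −5.81 for Pmp22 itself, and were lost without D4 b in both and also without D4 a in the second (up to 0.067 and 0.0711). At D7 they were −2.01 and −2.24 (adjusted p = 0.033 and 0.037), lost with any library left out.

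Genes of cholesterol and myelin lipid synthesis supply the sheath's lipids. Of 32 genes, 12 held 18 lncRNAs and 15 were tested, with 4 down at D4 and 2 down at D7. Upward there were 0 calls by edgeR and 0 by DESeq2, with 2 at D4 and 1 at D7 at an unadjusted p under 0.05. The medians were −1.45 and −0.30, beside −2.63 and −1.88 for 12 hosts, of which 10 and 9 fell. With 1 library left out, 0 to 4 fell at D4 and 0 at D7, and the D7 median was larger in size in each such fit, at −0.95 to −0.57. NONRATT022561.2 in Elovl1, an elongase of very long chain fatty acids, had 443 and 309, 129 and 114, and 245 and 206 counts, with a change of −1.77 at D4 (SE 0.24, adjusted p = 0.013) that was lost without D4 a or D4 b (up to 0.0927). NONRATT011461.2 in Msmo1, a sterol oxidase, had 131 and 89, 16 and 10, and 36 and 26. It changed by −3.21 (SE 0.40, adjusted p = 0.0097) at D4 and −1.91 (SE 0.37, adjusted p = 0.044) at D7, the first lost without D4 b (0.066) and the second with any library left out.

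Repair Schwann cell genes and neurotrophic factors are made by injured nerve in support of regrowth. Of 33 genes, 8 held 10 lncRNAs, of which 8 were tested, and 5 rose and 1 fell at each day. The medians were 4.54 and 4.20, beside 2.95 and 2.45 for 8 hosts, of which 5 rose and 1 fell at D4, and 6 rose and 1 fell at D7. Leaving out 1 library, 3 to 5 lncRNAs rose at D4 and 2 to 5 at D7, the fewest without any 1 of the D4 libraries at D4 and of the D4 and D7 libraries at D7. The fall was lost at D7 in each such fit, and at D4 without any 1 of the control and D4 libraries. NONRATT015075.2 (chr2:56892629-56893363) lies in Gdnf, a growth factor for motor and sensory neurons. It held 0 and 3 counts in control, 338 and 524 on D4, and 66 and 87 on D7, while Gdnf held 3 and 2, 504 and 722, and 103 and 98. Both were near 0 in control and highest on D4. The lncRNA stood at 257 times control on D4 (87.6 to 1248) and 47.7 times on D7 (16 to 234), called at adjusted p = 0.0065 and 0.022, the second lost without any 1 of the D4 and D7 libraries (up to 0.0852).

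NONRATT029243.2 (chr9:18637916-18638522) lies in Runx2, a runt-family transcription factor, 72989 bases from its nearest end. It held 0 and 0 counts in control, 141 and 207 on D4, and 131 and 117 on D7, which is at least 51.4-fold and 38.6-fold higher, taking 3 counts per library as the floor. Its host rose from 146 and 159 to 6092 and 7574 and to 3523 and 3899, and the difference from the host missed the threshold (adjusted p = 0.061 and 0.072). Sema3e, a guidance cue of the semaphorin family, holds 2 unspliced transcripts side by side, at chr4:17315508-17316646 and chr4:17314741-17315458. NONRATT021162.2 rose from 6 and 8 counts to 238 and 341 and to 294 and 213, and NONRATT021161.2 from 8 and 2 to 107 and 129 and to 93 and 113. Their changes at D4 were 5.17 (SE 0.34, adjusted p = 0.0024) and 4.38 (SE 0.52, adjusted p = 0.0087), beside 5.03 for Sema3e, and the second was lost without D4 a or D4 b (up to 0.0584).

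Cell cycle and mitosis genes are active in dividing cells. Of 49 genes, 24 held 39 lncRNAs and 25 were tested, of which 12 rose at D4 and 8 at D7. Downward there were 0 calls by edgeR and 0 by DESeq2, with 1 at D4 and 0 at D7 at an unadjusted p under 0.05, and on the mRNA scale 12 rose and 1 fell at D4. The medians were 3.36 and 2.54 (2.43 at D7 with the one at 0 in control at its bound), beside 3.66 and 3.14 for the hosts, all 24 of which rose at both days. The summed level was 190 and 241 CPM in control, 1430 and 1732 on D4, and 896 and 1003 on D7, so the groups did not overlap and D4 was highest. Without 1 of the libraries, 8 to 13 rose at D4, fewest without D4 a or D4 b, and 4 to 9 at D7, where 4 remained without control a and 5 without D7 a. NONRATT003292.2 (chr1:208000147-208001329) in Mki67 held 4 and 11 counts in control, 1000 and 1637 on D4, and 548 and 601 on D7. It changed by 7.24 (SE 0.56, adjusted p = 0.0033) and 6.12 (SE 0.54, adjusted p = 0.0069), against 3.92 and 3.24 for Mki67. The difference of 3.40 at D4 (SE 0.25, adjusted p = 0.0068) was lost without D4 b (0.0554), and that of 2.98 at D7 (SE 0.25, adjusted p = 0.017) without any 1 of the D4 and D7 libraries (up to 0.10). NONRATT005985.2 in Top2a, a topoisomerase of dividing cells, rose from 20 and 22 counts to 339 and 489 and to 216 and 274. Its changes of 4.12 (SE 0.28, adjusted p = 0.0024) and 3.44 (SE 0.27, adjusted p = 0.0056) stood beside 4.24 and 3.67 for the host.

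Among macrophage and immune genes, 22 of 48 held 30 lncRNAs, of which 22 were tested. At D4 12 rose and at D7 7 rose, and on the mRNA scale 8 rose at D4. Downward there were 0 calls by edgeR at either day and 1 by DESeq2 at D4, with 1 at each day at an unadjusted p under 0.05. The medians were 1.53 and 1.26, beside 1.68 and 1.29 for the hosts, of which 21 and 16 of 22 rose. With 1 library left out, 2 to 7 rose at D4 and 0 to 2 at D7. The macrophage marker sums given above rose with these lncRNAs, and their part was not tested. NONRATT020886.2 (chr4:156779797-156782295) in Cd163, the scavenger receptor for haemoglobin, held 198 and 111 counts in control, 1133 and 1347 on D4, and 601 and 613 on D7. It changed by 2.85 (SE 0.27, adjusted p = 0.0054) at D4 and 1.89 (SE 0.26, adjusted p = 0.020) at D7, the latter lost without any 1 of the D4 and D7 libraries (up to 0.0882). NONRATT004482.2 in Clec10a, a C-type lectin of macrophages, had 91 and 46, 291 and 294, and 82 and 107 counts, high on D4 alone. Its change of 1.95 at D4 (SE 0.34, adjusted p = 0.025) was kept only without control a (up to 0.128 otherwise).

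Extracellular matrix genes held 54 lncRNAs in 27 of 49 genes, and 37 were tested. At D4 1 rose and 1 fell, and at D7 2 rose and 1 fell. Their medians were 0.00 and −0.17, beside −0.28 and −0.25 for the hosts, and the first depended on the scaling (0.18 without TMM factors, −0.36 on the mRNA scale). Leaving out 1 library, 0 or 1 rose and 0 or 1 fell at D4, and 0 to 2 rose and 0 or 1 fell at D7, and the medians ran from −0.32 to −0.08 and from −0.30 to −0.08. NONRATT015286.2 in Postn, the matrix protein periostin, had 112 and 75, 165 and 190, and 583 and 388 counts, with D7 above the other groups. Its change of 2.28 at D7 (SE 0.28, adjusted p = 0.015) was lost without control b, D4 b or D7 a (up to 0.0695), and the host was not called (0.50, SE 0.41, adjusted p = 0.37). NONRATT011675.2 in Col4a1, a basement membrane collagen, had 144 and 153, 77 and 64, and 56 and 48 counts. Its changes of −1.23 (SE 0.25, adjusted p = 0.036) and −1.61 (SE 0.25, adjusted p = 0.026) stood beside −1.19 and −1.22 for the host and were lost with any library left out.

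Axon guidance and adhesion genes held 40 lncRNAs in 23 of 46 genes. Of 16 tested, 4 rose and 3 fell at D4, and 2 rose and 3 fell at D7, with medians of −0.57 and −0.93 beside −0.88 and −0.73 for the hosts. These medians had no stable sign. With 1 library left out they ran from −0.57 to 0.21 at D4, positive without control a, D4 a or D7 b, and from −0.87 to 0.65 at D7, positive without control a, control b, D4 a or D7 a. In such fits 2 or 3 rose and 2 to 4 fell at D4, and 2 rose and 0 to 3 fell at D7, with no falls without control a or D7 b. The summed level of all 40 was 1797 and 1198 CPM in control, 4050 and 4105 on D4, and 2443 and 2460 on D7. Most of the sum on D4 and D7, and its rise, came from 2 neighbouring transcripts of Dclk1, given next. The sum therefore does not describe the list as a whole. NONRATT015294.2 (chr2:144866512-144867527) and NONRATT015295.2 (chr2:144867878-144869627) are neighbours in Dclk1. The first held 799 and 659 counts in control, 3610 and 3978 on D4, and 2365 and 2627 on D7. For the second, the counts were 1137 and 823, 5139 and 6199, and 3727 and 3488. Both were above control in all injured libraries, and highest on D4. Their changes were 2.22 (SE 0.13, adjusted p = 0.0024) and 2.37 (SE 0.15, adjusted p = 0.0024) at D4, and 1.68 and 1.79 at D7, beside 1.84 and 1.57 for Dclk1.

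Ion channel and transporter genes held 40 lncRNAs in 21 of 37 genes. Of 19 tested, 1 rose and 1 fell at D4, and 0 rose and 2 fell at D7 in edgeR's quasi-likelihood test. DESeq2 called 2 up and 3 down at D4, and 2 up and 2 down at D7, where 3 were higher at an unadjusted p under 0.05. The medians were −0.46 and −0.01, the second turning to 0.15 without TMM factors, beside −1.65 and −1.25 for the hosts. In fits without 1 library they were −0.04 and −0.10 without control b, and otherwise −0.75 or lower at D4 and −0.86 or lower at D7, over 24 or 25 lncRNAs. In such fits the D4 rise was kept only without D7 a or D7 b, and 1 fell at D7. NONRATT014419.2 (chr19:58861957-58862924) ends 2 bases from an end of Kcnk1, the gene of the potassium channel TWIK-1. It held 1603 and 1070 counts in control, 4 and 1 on D4, and 1 and 1 on D7, while Kcnk1 fell from 3146 and 1841 to 58 and 53 and to 144 and 80. The lncRNA all but disappeared at both days, with a fitted log2 change of −9.13 at D4 (SE 0.60, adjusted p = 0.0024), and control was 1428 times D7 (395 to 11802). Its difference from the host was −3.54 at D4 (SE 0.46, adjusted p = 0.046), kept only without D4 a (up to 0.168 otherwise). NONRATT028622.2 in Scn3b, a sodium channel beta subunit, rose from 5 and 8 counts to 45 and 75 on D4 and was at 26 and 49 on D7. The D4 change of 3.00 (SE 0.53, adjusted p = 0.025) was lost without any 1 of the control and D4 libraries (up to 0.127).

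Skeletal muscle and adipocyte genes, which belong to tissues around the nerve, held few. Of 21 lncRNAs in 11 muscle genes 6 were tested, with medians of −0.50 and −0.32, and of 5 in 5 adipocyte genes 2 were tested, with medians of −1.96 and −2.59. In fits without 1 library, the muscle medians ran from −1.23 to −0.32 and from −0.99 to 0.02, and the adipocyte medians from −2.66 to −2.09 and from −6.38 to −1.34, with 1 adipocyte lncRNA called lower at D4 without D7 a or D7 b, and 1 at D7 without D7 b. In edgeR's quasi-likelihood test with all 6 libraries 0 were called at either day. At an unadjusted p under 0.05, 1 muscle lncRNA was lower at each day and 1 adipocyte lncRNA at D7, and DESeq2 called 1 of each lower at D7. NONRATT011787.2 in Ldb3, a protein of the muscle Z-disc, had 22 and 29, 20 and 18, and 14 and 27 counts. NONRATT007220.2 in Retn, the adipocyte hormone resistin, had 94 and 124, 20 and 31, and 1 and 53, and Retn itself 1634 and 1624, 377 and 412, and 17 and 886, so that lncRNA and host were lowest in the same library.

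The study also named intragenic lncRNAs in Nfasc, Smad3, Ppp2r2b and Rapgef3. NONRATT008698.2 in Nfasc, the node of Ranvier adhesion protein neurofascin, had 131 and 91, 1 and 23, and 16 and 8 counts. All injured libraries were below control, but −3.39 (SE 0.97, adjusted p = 0.086) at D4 and −3.29 (SE 0.97, adjusted p = 0.11) at D7 missed the threshold, while Nfasc fell by 2.99 and 3.57 on the log2 scale. NONRATT028679.2 and NONRATT028680.2 start 1 base apart at an end of Smad3, a mediator of TGF-beta signals. The first had 161 and 10 counts in control, 0 and 0 on D4, and 217 and 150 on D7, and the second 3 and 86, 3 and 2, and 4 and 4. The 2 control rats differed strongly in both and in opposite order, the first was not called at either day (adjusted p = 0.076 and 0.62) and the second was not tested.

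NONRATT013802.2 in Ppp2r2b, a regulatory subunit of the phosphatase PP2A, had 37 and 22, 4 and 4, and 37 and 24 counts. It was low on D4 alone, with a change of −2.99 (SE 0.47, adjusted p = 0.020) that was lost without control a, D4 a or D4 b (up to 0.12). NONRATT026281.2 in Rapgef3, the cyclic AMP sensor Epac1, had 25 and 16, 2 and 7, and 2 and 2 counts, with changes of −2.33 (SE 0.61, adjusted p = 0.070) and −3.37 (SE 0.68, adjusted p = 0.050) that were not called. These lncRNAs were picked by the study on the same libraries. The study also measured those it named in Gdnf, Nfasc and Pmp22 by RT-qPCR in the remaining rats of each group. It reported the same directions as in its sequencing at D4 and D7, with significant differences from control for all but the one in Nfasc.

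Among the largest changes that passed at least 50 counts, those in hosts not yet named were rises. NONRATT012419.2 (chr17:31400761-31403685) reaches the end of Slc22a23, a gene of the organic ion transporter family. It held 5 and 30 counts in control, 6237 and 8010 on D4, and 6689 and 6054 on D7, with changes of 8.46 (SE 0.90, adjusted p = 0.0069) and 8.37 (SE 0.90, adjusted p = 0.011). Slc22a23 rose from 1249 and 816 to 12742 and 15885 and to 13031 and 11777, and the difference from the host missed the threshold (adjusted p = 0.094 and 0.13). NONRATT021747.2 in the uncharacterized gene LOC690045 held 0 and 0, 37 and 94, and 132 and 118 counts, at least 19.1-fold and 38.9-fold above control, and the D7 call was lost without D7 a or D7 b (up to 0.0675).

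NONRATT022152.2 in Mms22l, a gene of replication fork repair, held 0 and 0, 141 and 128, and 18 and 80 counts, at least 40.2-fold above control at D4. NONRATT030715.2 in Troap, a spindle protein gene, held 0 and 0, 125 and 54, and 68 and 17, at least 27.2-fold above control. Both were called at D4 alone (adjusted p = 0.024 and 0.037) and lost without any 1 of the control and D4 libraries (up to 0.11 and 0.127). Both hosts rose at both days.

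Several hosts held more lncRNAs than any list member. Ank3, the node and initial segment scaffold ankyrin-G, held 13, of which 11 were tested. By edgeR's quasi-likelihood test and by DESeq2 0 were differentially expressed, with 1 at D7 at an unadjusted p under 0.05 and log2 fold changes from −0.89 to 0.41 at D4 and from −0.29 to 1.19 at D7. Son held 12, and of 9 tested the one given above alone was called. Bclaf1, a nuclear RNA-processing factor, held 10, of which 7 were tested. Of these, 2 fell at D4, one lost with any library left out (adjusted p up to 0.176) and the other kept only without control a (up to 0.19 otherwise). The hosts Ank3, Son and Bclaf1 were not called at either day. Cacna1a, a calcium channel gene, and Cep295, a centriole gene, also held 10. In Cacna1a 1 of 9 tested rose at D4, and the host was not called. In Cep295 1 of 5 tested rose at D4, and the host rose at both days (1.40, SE 0.16, adjusted p = 0.0012, and 1.06, SE 0.16, adjusted p = 0.0045). The Cacna1a call was lost with any library left out (up to 0.198), and that in Cep295 was kept only without control b (up to 0.157 otherwise). Another 2 lncRNAs of Cep295 differed from the host at D4, by −2.77 and −2.59, and were lost with any library left out (up to 0.137 and 0.252).

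In 7 genes at least 3 lncRNAs were called at D4 in the host's direction, named after their values were seen. They rose in Sppl2b, an intramembrane protease (4 of 4), Nav2, a neuron navigator (4 of 5), Dclk1 (3 of 4) and Mki67 (3 of 6), and fell in Mbp, the myelin basic protein (4 of 5), Secisbp2l, a gene of selenoprotein synthesis (3 of 3), and Fnbp1, a membrane-bending protein (3 of 5). In Nav2 the 4 changed by 2.98 to 4.00 on the log2 scale at D4, beside 2.71 for the host, and in Mbp by −4.06 to −3.17 beside −3.81. In Secisbp2l the 3 changed by −2.08 to −1.91, beside −3.37 for the host. Of the Mbp transcripts, all 4 calls were lost without D4 a or D4 b. The lncRNAs of 1 gene share its locus and are not replicates of each other.

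Counts near 0 in 1 group and high in another were found for 23 intragenic lncRNAs, with 5 counts or fewer in both libraries of 1 group and 100 or more in both of another. Of these, 15 were unspliced, 14 lay within 1000 bases of a host end, and for 9 the host was called at neither day. Among all intragenic lncRNAs, 42.8% were unspliced and 36.9% lay that near a host end. Of the hosts tested, 20.1% were called at D4 and 16.9% at D7. The 23 were not set against the number with such counts among all lncRNAs. Control alone was high and both injured groups low for 6, among them those in Son, Cbfa2t2, Lonrf2 and Kcnk1. Control was low and both injured groups were high for 3, in Herc1, Cblb and Runx2. This list was chosen on the counts and is a description without a test. How StringTie shared fragments between overlapping transcripts was not given in the sources used here, and its part in these counts was not tested. An unspliced lncRNA at a host end, as in Adam19, Slc22a23, Kcnk1 and Dip2b, cannot be told apart here from a piece of the host's own end exon.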

How the data were processed

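Per the labels, the reads were aligned to Rnor_6.0 with HISAT2 2.0.4 and transcripts were assembled with StringTie 1.3.0. The authors deposited whole-number fragment counts per lncRNA transcript and per gene, which had not been normalized, and FPKM values that the authors derived from them. Counts were used for all tests, and FPKM only for levels and for ranking. How the counting used strand was not given in the sources used here. Coordinates are those of the files on Rnor_6.0, and promoter sequences are from RefSeq on GRCr8.

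lncRNA loci were set against gene spans, and a transcript was kept when it lay wholly inside 1 or more spans. Tests of differential expression used edgeR 4.0.16 under R 4.3.3 (filterByExpr, TMM factors, glmQLFit and glmQLFTest in 1 fit of the 6 libraries), over all lncRNAs or all genes, with Benjamini-Hochberg adjustment, an adjusted p-value under 0.05 and at least a 2-fold change. A standard error is the size of the log2 fold change over the root of its F statistic. Where a group holds only a few counts, it can be smaller than counting error alone and then understates the uncertainty of the fold. The difference from the host was tested in the same way, with an offset of log(lncRNA effective library size) plus log(host CPM + 0.5), for lncRNAs inside 1 gene with a host past the filter. Adjusted p-values in the text are from these fits unless DESeq2 is named. A fold against a group at 0 was computed against 3 counts per library and is a bound. With 1 to 3 counts in a group, the ratio is given with its exact 95% counting interval. Intervals and bounds cover counting error only, since fragments are not independent molecules. The biological coefficient of variation was 0.399 for lncRNAs, 0.181 for genes and 0.375 for the host difference. The fits were tested on simulated counts.

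The intragenic lncRNAs, the lists and the tests were chosen with earlier results of these data known. The lncRNAs named are those of the study that meet the position rule, then at each day the 4 largest rises and falls with at least 50 mean counts in the higher group and libraries that do not overlap, and the 4 largest differences from the host in each direction. Pairs of opposite direction, the 2 called lncRNAs of highest FPKM per host list (or the most abundant where none was called), the 6 most abundant in control, the 3 genes with most lncRNAs, and the 3 largest rises and falls from D4 to D7 complete the rule. Others were named after their values were seen. Alternatives were DESeq2 1.42.0, limma 3.58.1 on log ratios, other scalings and filters, fits of 2 groups, the library letter as a block, and each library left out. Tables and figures were made with pandas 2.3.3, numpy 2.4.6, matplotlib 3.10.9 and scipy 1.17.1 under Python 3.11.15.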

Additional observations from a re-analysis of the deposited data

Results flagged for a closer look

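The effect of the crush differed between D4 and D7, by the edgeR quasi-likelihood test of D7 against D4, for 9 intragenic lncRNAs, given here as log2 fold changes from D4 to D7. NONRATT030737.2 in Dip2b (9.06), NONRATT014793.2 in Galns (−7.03) and NONRATT004978.2 in Tanc2 (−6.01) were called with each library left out. NONRATT005350.2 in Tenm2 (5.03) was lost without D4 a (adjusted p = 0.056), and NONRATT010109.2 in Emid1 (3.12) without D4 a, D4 b or D7 a (up to 0.17). NONRATT031023.2 in Iqsec2 had a fitted change of −5.85 against 1 count in each D7 library, where D4 stood at 65 times D7 (95% counting interval 17.6 to 542), and was lost without any 1 of the D4 and D7 libraries (up to 0.0959).

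The remaining 3 were high on D4 alone. NONRATT003043.2 (−4.85), at an end of the mitochondrial ribosomal protein gene Mrpl17, had 11 and 4 counts in control, 454 and 523 on D4, and 14 and 18 on D7, and was lost without any 1 of the D4 and D7 libraries (up to 0.148). NONRATT008238.2 (−4.42) in Ptpn7, a tyrosine phosphatase of lymphoid cells, had 2 and 3, 106 and 100, and 6 and 3 counts. NONRATT026666.2 (−4.33) in Slc25a3, the mitochondrial phosphate carrier, had 9 and 15, 314 and 212, and 11 and 14. Both were lost with any library left out (up to 0.164 and 0.206). The hosts Mrpl17 and Slc25a3 were not called at either day, and Ptpn7 was upregulated at both.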

How the results depend on the processing

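The number of differentially expressed intragenic lncRNAs depended on the processing, while no named call changed direction. It was 470 at D4, 254 at D7 and 9 from D4 to D7, with 55 and 32 differing from the host at D4 and D7. DESeq2 called 681 at D4, 484 at D7 and 120 from D4 to D7. Among all lncRNAs it called 1928, 1468 and 365, against 1415, 815 and 35 in the main fits. At D4 there were 550 intragenic lncRNAs without TMM factors and 599 when scaled by mRNA library sizes. Without a filter on low counts there were 273, 132 and 5. Scaling by mRNA library sizes gave 19, and a minimum of 10 counts in every library gave 18, from D4 to D7. Fits of only the 2 groups compared gave 155 at D7 and 15 from D4 to D7, and 29 and 19 against the host. limma on log ratios gave 85 against the host at D4. With the library letter as a replicate block there were 275, 139 and 4, and 22 and 13 against the host. Same-letter libraries deviated together with correlations of only 0.05, 0.04 and −0.03, which show no pairing of rats by letter. Noise at low counts also lowers such correlations, so they cannot exclude a pairing. With 1 library left out, the numbers ranged from 97 to 311 at D4, 64 to 127 at D7 and 8 to 14 from D4 to D7, lowest at D7 without a D7 library and otherwise without a D4 library. Against the host they ranged from 16 to 44 and 15 to 33, lowest without a D4 library at both days. The cause of these moves was not tested. Of 113 calls named, 63 passed under every alternative run, and 0 reversed. The 63 were judged only on runs that tested them, and a minimum of 10 counts in every library tested 45 of the 113. A lncRNA near 0 in a group could not enter that run. With 2 rats per group and 4610 lncRNAs under the count filter, a lncRNA without a call is not shown to be unchanged.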
